A study of Mus musculus with 16 samples.

Results

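The ribosomal protein genes examined here are the protein-coding mouse genes whose symbols begin with Rpl or Rps followed by a digit, together with Rplp0, Rplp1, Rplp2 and Rpsa. Rps6k kinases and pseudogenes with names in -ps were left out. The rule took in 86 of 45513 genes in the count tables. Of these, 46 encode proteins of the large (60S) subunit, 31 encode proteins of the small (40S) subunit, 8 are paralogs or retrogenes, and 1, Rps19bp1, encodes a nuclear protein that binds Rps19 and is not itself part of the ribosome. A filter on low counts kept 83 of the 86, and the 3 that failed it were the paralogs Rpl3l, Rpl10l and Rpl39l.

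The cytosolic ribosome is built in the nucleolus from ribosomal RNA and about equal amounts of each ribosomal protein, so these genes form a family with a common output. Most of their mRNAs start with a C followed by an uninterrupted run of pyrimidines, the 5′ terminal oligopyrimidine (TOP) motif, through which mTORC1 and the RNA-binding protein Larp1 set how strongly they are translated. In the intestinal crypt, dividing progenitors make new ribosomes for growth, while goblet and Paneth cells use them for bulk secretion.

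The libraries came from the small intestine of 8 Atoh1(WT)CreERT2 R26RtdTom mice, in a study that used males and females aged 8 to 16 weeks. In these mice the tamoxifen-activated recombinase CreERT2 is made from the Atoh1 locus, and it switches on the red reporter tdTomato (tdTom) in cells that express Atoh1, the master regulator of the secretory lineage. EpCAM+ epithelial cells were sorted from each mouse as tdTom+ (secretory-enriched) and tdTom- (the rest of the epithelium), which gives 8 libraries per fraction and 1 pair per mouse. All 8 mice carried both alleles and received tamoxifen, so the fractions differ in the reporter and not in genotype or treatment. The labels give 1 mg tamoxifen per day on 3 days. The paper states the same schedule for its secretory signature, which it drew from tdTom+ against tdTom- cells. Its general RNA-seq methods give collection 24 h after 3 mg. The tissue was the proximal 15 cm with the villus-rich fraction 1 discarded, so the tdTom- cells are mixed crypt and residual villus cells rather than a single type.

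Each library held 17116405 to 25323567 assigned counts, and the sort followed its label. Atoh1 ranged from 48.0 to 80.1 CPM (counts scaled to a common library total) in tdTom+ cells and from 0.502 to 1.25 CPM in tdTom- cells, a log2 fold change of 6.44 ± 0.18 (SE). Of 8 markers each, 8 goblet, 8 Paneth, 8 enteroendocrine and 7 tuft markers were higher in tdTom+ cells, and 8 absorptive markers were lower. Of the 8 stem cell markers 3 were higher and none of the 8 proliferation markers was called in either direction (edgeR, adjusted p under 0.01). The tdTom- library of mouse 7 stood apart, with the lowest absorptive score and the highest stem cell and proliferation scores of its fraction, and results that rest on it are given with and without it.

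Starts of ribosomal protein genes show the motif the family is known for. RefSeq promoter windows (GRCm38.p6), 78 in all, were found for 66 of the 86 genes, and 14 of the windows (17.9%), each of a different gene, had a C at the annotated start followed by at least 4 pyrimidines. The same holds for 2.51% of all 32851 windows in the table. A run of this kind beginning anywhere within 10 bases of the start was found in 42 of the 78 windows (53.8%) and in 30.7% of all windows. The count at the exact base depends on where RefSeq places the start. Windows of 30 bases are given for 8 genes described below. They do not represent the family, since most of them have the run at the start and most of the 66 genes do not. Each runs 5′ to 3′ on the gene's strand, with 10 bases before the start and 20 from the start on. The capitals mark the pyrimidine run that begins at the start, and a window with no capitals has a purine there.
Rps6: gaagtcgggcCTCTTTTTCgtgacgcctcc
Rplp2: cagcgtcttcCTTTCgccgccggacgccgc
Rpl28: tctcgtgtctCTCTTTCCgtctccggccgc
Rps27: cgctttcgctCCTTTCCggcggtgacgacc
Rps27rt: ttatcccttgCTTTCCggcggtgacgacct
Rpl12: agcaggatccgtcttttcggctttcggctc
Rpl41: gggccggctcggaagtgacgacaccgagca
Rpl36al: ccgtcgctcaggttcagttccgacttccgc

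The windows lie at chr4:86857348-86857377 (Rps6, minus strand), chr7:141447641-141447670 (Rplp2, plus), chr7:4792955-4792984 (Rpl28, plus), chr3:90213629-90213658 (Rps27, minus), chr9:114982720-114982749 (Rps27rt, minus), chr2:32961702-32961731 (Rpl12, plus), chr10:128549149-128549178 (Rpl41, minus) and chr12:69184048-69184077 (Rpl36al, minus). The windows of Rps27 and its retrogene Rps27rt share a stretch of 19 bases that takes in most of their transcribed part. Of the 5 genes shown with a run at the start, Rpl28 lay among the lowest fold changes of the family and Rps27 and Rps27rt among the highest. Absence of the letters from such a window says nothing about the mRNA's true start.

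Ribosomal protein mRNAs took up 1.29% to 2.12% of assigned counts in tdTom+ libraries (median 1.75%) and 1.14% to 2.50% in tdTom- libraries (median 1.36%). Averaged over 8 libraries each, tdTom+ cells stood at 1.72% ± 0.30 (SD) and tdTom- cells at 1.57% ± 0.46. The ranges overlapped almost completely, and the widest spread was in the tdTom- fraction. Within mice, the share was higher in tdTom+ cells in 5 of 8. It went from 1.37% in tdTom- to 2.12% in tdTom+ cells in mouse 6 and from 1.26% to 1.96% in mouse 5. Smaller differences in the same direction were seen in mouse 1 (1.35% against 1.62%), mouse 2 (1.29% against 1.42%) and mouse 3 (1.14% against 1.29%). Mouse 8 held nearly equal shares, at 1.90% and 1.88%. In mice 4 and 7 the tdTom- library held more, 1.80% against 1.51% in mouse 4 and 2.50% against 1.92% in mouse 7. The mean within-mouse difference was 0.141 percentage points with an SD of 0.451, and 0.242 points without mouse 7.

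The sign of that mean depends on what is in the denominator. Transcripts of the 13 mitochondrial protein-coding genes made up 6.57% to 19.7% of counts in tdTom- libraries and 1.72% to 3.73% in tdTom+ libraries. With them left out of the total, the share was 1.76% in tdTom+ and 1.85% in tdTom- cells, a difference of -0.0908 points. With the 10 most counted genes of any library left out, it was 2.58% and 2.02%, a difference of 0.552 points. The share therefore gives no direction that holds under every total.

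**Figure D1:**
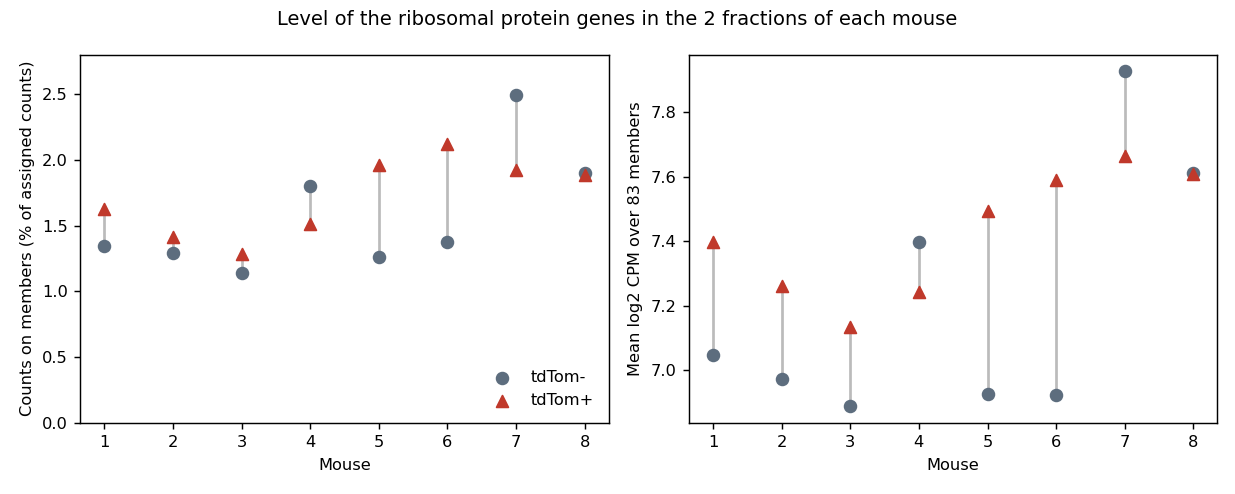
Left, percent of assigned counts on the 86 ribosomal protein genes, and right, mean log2 CPM over the 83 that passed the filter, for the tdTom- (circles) and tdTom+ (triangles) library of each of 8 mice. Grey lines join the fractions of a mouse. The tdTom+ library lies above the tdTom- library in mice 1, 2, 3, 5 and 6 and below it in mice 4 and 7, and the left panel's order depends on the total used.

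After scaling by trimmed mean of M-values (TMM), which sets libraries level on the bulk of genes, the ribosomal protein genes moved up or down together within each mouse. In mouse 6 all 83 were higher in tdTom+ cells, with a median log2 difference of 0.68, and in mouse 5 82 were higher, with a median of 0.59. Mouse 1 (82 higher, median 0.36), mouse 2 (82 higher, median 0.29) and mouse 3 (80 higher, median 0.24) followed. In mouse 7, 81 of 83 were lower in tdTom+ cells, with a median of -0.27, and in mouse 4, 75 were lower, with a median of -0.17. Mouse 8 split into 44 higher and 39 lower, with a median of 0.01. The median over all 15323 genes in the same mice stayed between -0.13 and 0.05.

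**Figure D2:**
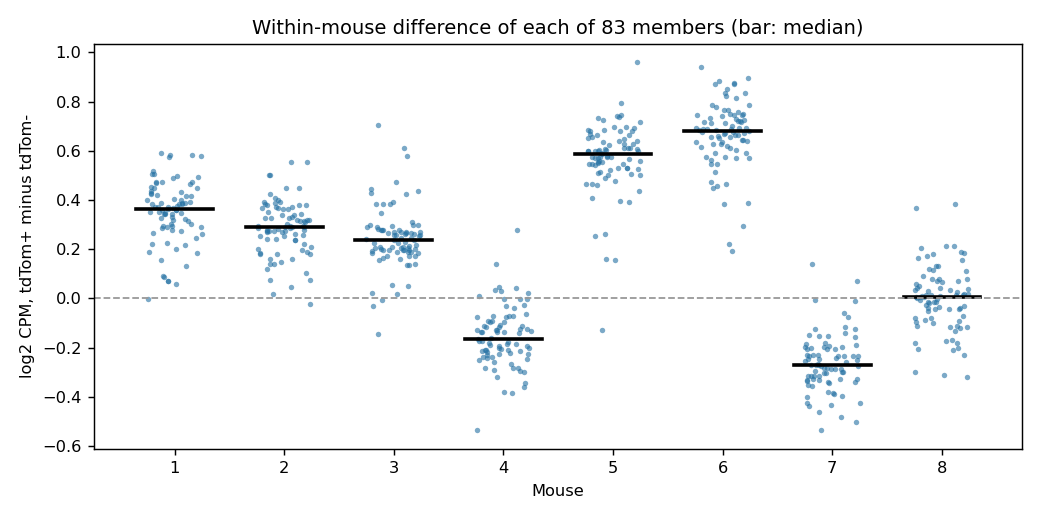
Difference in log2 CPM between the tdTom+ and tdTom- library of each mouse for each of the 83 ribosomal protein genes (points), with the median as a bar. The points of a mouse lie close together, while the medians run from -0.27 in mouse 7 to 0.68 in mouse 6.

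Proteins of both subunits shared this movement. The mean log2 CPM of 60S genes differed between fractions by 0.215 (SD of within-mouse differences 0.333) and that of 40S genes by 0.210 (SD 0.353). In every mouse the 60S difference and the 40S difference lay within 0.045 of each other. Between libraries of the same fraction, the median member had an SD of 0.32 on the log2 scale. After the mean of the family was subtracted from each library, the median SD fell to 0.06. The spread left over was 0.03 for Rps3, a 40S protein at the mRNA entry site, and was under 0.1 for 75 of the 83 genes.

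The 8 genes with the most spread of their own were the 5 paralogs tested, Rps19bp1, Rpl24 and Rpl41. Rps27l, the p53-inducible paralog of Rps27, had an SD of 0.15 between libraries, which rose to 0.21 once the family mean was subtracted. Rps19bp1 behaved alike, from 0.20 to 0.21. The SD of Rpl36al was 0.20 before and 0.14 after, that of Rpl7l1 0.20 and 0.14, and that of Rpl22l1 0.30 and 0.11. Rpl24 was the 60S core gene with the most left, 0.12, and it was also the least counted of them. These values describe the libraries, and the mean subtracted holds each gene itself.

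**Figure D3:**
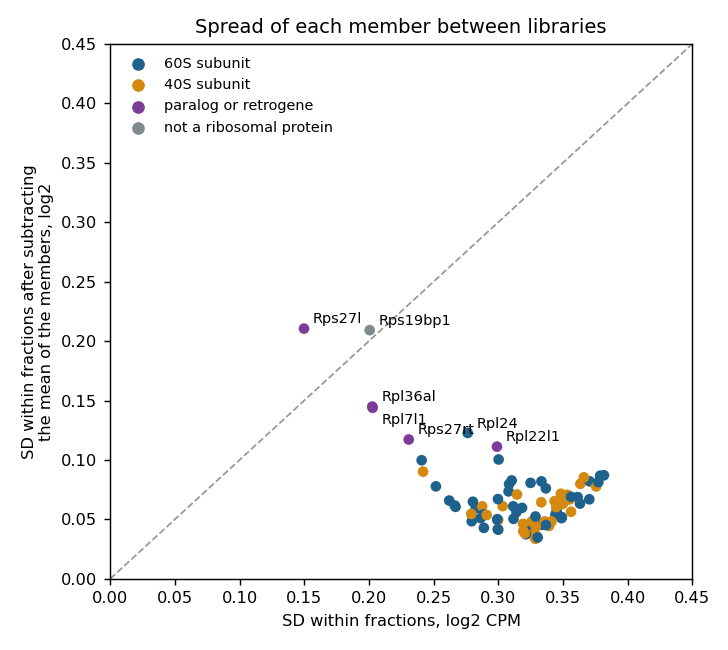
SD of log2 CPM within fractions for each of the 83 genes (x axis) against the SD after subtracting each library's mean over the family (y axis), with the dashed line marking equal values. Genes of the 60S (blue) and 40S (orange) subunits fall far below the line, whereas Rps27l and Rps19bp1 lie above it.

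The level of the family in tdTom- cells was ordered much like some of their cell type scores. A score is the mean log2 CPM over 8 markers. Mouse 7 had the highest family mean, 7.93, with the highest stem cell score (6.57) and proliferation score (6.29) and the lowest absorptive score (10.5). Mouse 8 followed, with a family mean of 7.61, a stem cell score of 6.27 and an absorptive score of 11.4, and then mouse 4, with 7.40, 5.89 and 11.5. In the other 5 mice the family mean was 6.89 to 7.05, the stem cell score 5.54 to 5.85 and the absorptive score 11.8 to 12.0. The immune score also ran highest in mice 7 (3.30), 8 (3.34) and 4 (1.63), against -0.07 to 1.25 in the others. The proliferation score was 5.70 in mouse 8, 5.76 in mouse 4 and 5.22 to 5.66 in those 5. Scores of other cell types followed this order in part or not at all. The goblet score was highest in mouse 1 (6.14), the Paneth score in mouse 4 (5.08) and the enteroendocrine score in mouse 2 (5.4). The tuft score was lowest in mice 7 (1.16) and 8 (1.76) but was 3.14 in mouse 4. In tdTom+ cells the family mean ranged only from 7.13 to 7.67, with stem cell scores of 6.16 to 6.77. There mouse 8 had a family mean of 7.61 with a stem cell score of 6.34, and mouse 6 had 7.59 and 6.77. The part of cell composition in the family's level was not tested, and in bulk samples fewer cells of a type and less RNA per cell cannot be told apart.

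Tested gene by gene without regard to the pairing by mouse, almost no ribosomal protein gene differed between the fractions by more than the spread between mice. The fit that used the pairing, given below, called 8. In the fit without mice as a block, 2 of 83 were higher in tdTom+ cells at an adjusted p under 0.01 and none was lower, by edgeR's quasi-likelihood test with Benjamini-Hochberg adjustment over all 15323 genes. Over all genes tested 49.6% were called, and 22.7% were called higher. At an unadjusted p under 0.05 there were 7 genes of the family, against 62% of all genes. DESeq2 called 4 higher and none lower. It called higher 15.1% of the 27852 genes with a count in any library. That set is wider than the 15323 genes, so this share cannot be set beside the 22.7%. All 83 log2 fold changes lay between -0.11 and 0.47, and 79 were above 0, against 7777 of the 15323 genes. The median was 0.17 for the family and 0.01 for all genes. The tdTom+ and tdTom- values overlapped for each of the 83, while 31.6% of all genes had fractions that did not overlap.

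With mouse as a block, which compares the fractions of the same animal, 8 of 83 were higher and none was lower, and 25.8% of all genes were called higher. The median SE of a member's fold change fell from 0.15 to 0.10 and the median fold change was 0.21. The 8 were Rpl36al, Rps27rt, Rps27, Rpl41, Rpl10, Rpl9, Rpl12 and Rpl30. Leaving out mouse 7 in the fit without the block gave 7 genes higher, the 8 just named without Rpl12, against 25.1% of all genes, and leaving out mouse 3 gave 4. Leaving out mouse 4 gave 2, and leaving out mouse 1, 2, 5, 6 or 8 gave 1, Rpl36al. Of all genes, 3960 of 15338 were called higher without mouse 3 and 3195 of 15307 without mouse 4. Without mouse 1, 2, 5, 6 or 8, 3180 to 3284 were.

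Fold changes can carry a trend with gene length. The length used here was the annotated exon length of each gene, so the counts that follow depend on the annotation. With such a trend removed and mouse as a block, 47 of 83 were higher and none was lower, with a median of 0.28, and 28.7% of all genes were called higher. Without the block the same correction gave 12 genes higher, and 24.4% of all genes. The number of genes called in this family thus moved from 2 to 47 with the fit, and the direction of the called genes was up in each of these fits. Scaling libraries by the family itself, which tests each gene against the rest of the family, left no gene higher and 1 lower, and in that scaling 26% of all genes were called lower.

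**Figure D4:**
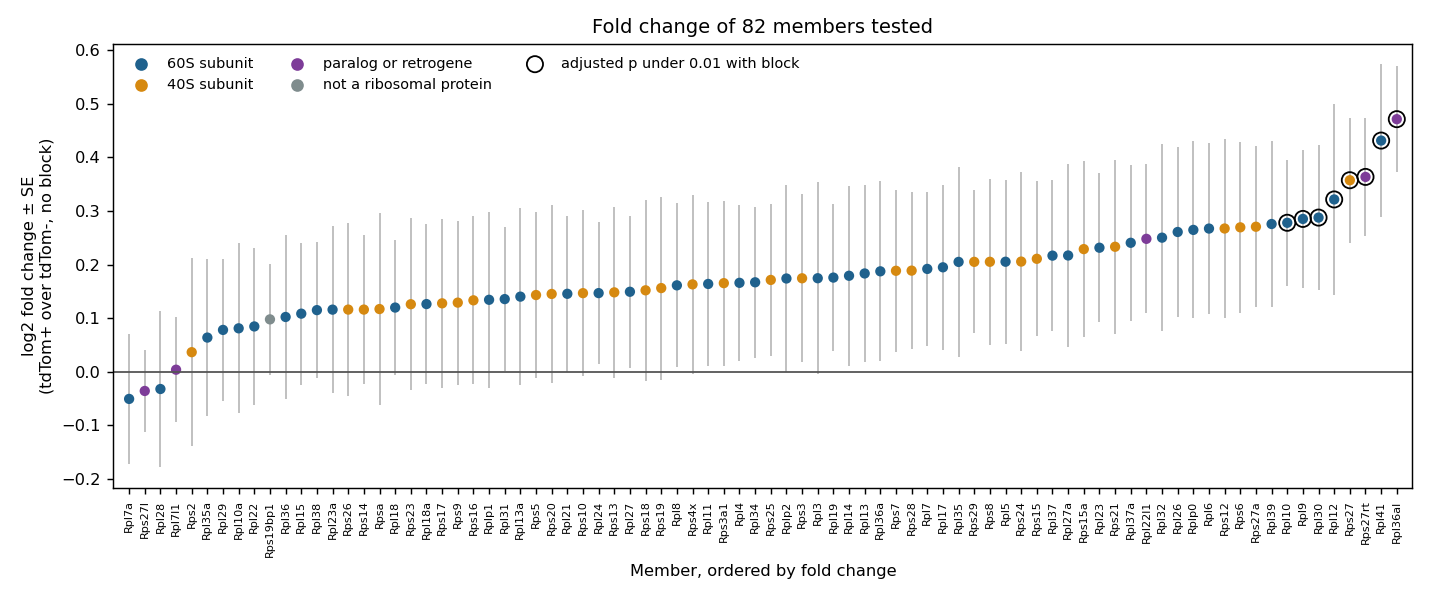
Log2 fold change (tdTom+ over tdTom-, fit without block) with its SE for 82 of the 83 genes, ordered by value and coloured by subunit. Rings mark the 8 genes with an adjusted p under 0.01 in the fit with mouse as a block. The values run from -0.05 (Rpl7a) to 0.47 (Rpl36al), and scaling by the family itself moves the median to -0.01.

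The largest fold change belonged to Rpl36al (ENSMUSG00000049751, chr12:69182731-69184083), an autosomal retrogene that encodes nearly the same protein as the X-linked Rpl36a. Its level was 71.6 CPM at the lowest, 77.1 at the median and 89.1 at the highest in tdTom+ cells, and 45.5, 54.5 and 76.0 in tdTom- cells. It was the only gene of the family higher in tdTom+ cells in 8 of 8 mice, a pattern that 22.9% of all genes showed. On the log2 scale it was higher by 0.47 ± 0.10 (SE, adjusted p = 0.000406), and by 0.49 ± 0.07 with the block (adjusted p = 3.4e-05). It was called in 23 of 25 fits, and the 2 exceptions were the fits scaled by the family, where the value was 0.28 (adjusted p = 0.0213, and 0.0155 with the block).

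Rps27 encodes a zinc-finger protein of the 40S subunit, and Rps27rt is an intronless copy of it. Rps27 was counted at 152 to 191 CPM in tdTom+ cells (median 171) and at 109 to 187 in tdTom- cells (median 117). The fraction difference was 0.36 ± 0.12 on the log2 scale (SE, adjusted p = 0.013), and 0.38 ± 0.09 with the block (adjusted p = 0.00152). Rps27rt was counted at 37.4 to 48.6 CPM (median 42.4) and 25.6 to 47.0 CPM (median 30.1), with a fold change of 0.36 ± 0.11 (adjusted p = 0.00839, and 0.00064 with the block). Both were higher in tdTom+ cells in 7 of 8 mice. The transcripts of the 2 genes were identical over 341 aligned bases, far longer than a 50-base read, so their counts cannot be told apart and are not 2 observations. The call for Rps27rt held in 16 of 25 fits and in 3 of the 8 that left out a mouse.

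Rpl41 encodes the smallest protein of the ribosome. It was counted at 272 to 376 CPM in tdTom+ cells (median 309) and 173 to 357 in tdTom- cells (median 206), a log2 difference of 0.43 ± 0.14 (SE, adjusted p = 0.0143), or 0.47 ± 0.11 with the block (adjusted p = 0.00179). Rpl12, a 60S protein at the base of the stalk, was counted at 215 to 343 CPM and 150 to 374 CPM. Its fold change was 0.32 ± 0.18 (adjusted p = 0.134) and 0.38 ± 0.11 with the block (adjusted p = 0.009). For both genes the highest tdTom- value was that of mouse 7, as it was for each of the 83.

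Among the smallest fold changes, 3 genes lay below 0 by less than the error, the 60S genes Rpl7a (-0.05 ± 0.12) and Rpl28 (-0.03 ± 0.15) and the paralog Rps27l (-0.04 ± 0.08). Rpl7a was counted at 183 to 265 CPM in tdTom+ cells (median 218) and 180 to 323 CPM in tdTom- cells (median 197). Rpl28, a protein of metazoan ribosomes, was counted at 151 to 224 CPM (median 191) and 149 to 309 CPM (median 168). The fractions overlapped for both. Rpl7l1, a nucleolar relative of Rpl7, came next at 0.00 ± 0.10. Relative to the family Rpl7a lay at -0.25 (adjusted p = 0.0193) and Rpl28 at -0.21 (adjusted p = 0.0381), short of the threshold.

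The acidic stalk recruits elongation factors to the 60S subunit. Its genes Rplp0, Rplp1 and Rplp2 had log2 fold changes of 0.26 ± 0.17, 0.13 ± 0.16 and 0.17 ± 0.17, and none was called. Rplp0 was counted at 513 to 791 CPM in tdTom+ and 382 to 909 CPM in tdTom- cells. Rpsa, the 40S protein also known as the laminin receptor precursor, had a fold change of 0.12 ± 0.18, and Rps6, the substrate of the S6 kinases that mTORC1 activates, one of 0.27 ± 0.16 (adjusted p = 0.161, and 0.0151 with the block). Rps6 was counted at 184 to 269 CPM and 136 to 308 CPM. The median fold change was 0.17 over the 46 genes of the 60S subunit and 0.16 over the 31 of the 40S subunit.

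Levels per length differed far more between genes than between fractions. Per kilobase of annotated exon, and averaged over the fractions, Rplp1 was highest at 754 CPM per kb, followed by Rps12 at 549, Rpl8 at 476, Rpl4 at 468 and Rpl32 at 464. The lowest were Rps19bp1 at 12.0, Rpl7l1 at 17.5 and Rpl24 at 18.5 CPM per kb, and the median was 119. This order depends on the annotated exon length, which was 495 bases for Rplp1 and 4483 for Rps3. Rps3 had the higher mean in tdTom+ cells, 488 CPM against 390 CPM for Rplp1, but stood at 103 CPM per kb. The first 5 are core proteins, Rps12 of the 40S and the rest of the 60S subunit. Processed pseudogenes matched in sequence held 0.0054% of the reads assigned to Rpl41 and its copies but 67.7% of those assigned to Rpl24 and its copies. For 8 of the 83 genes more reads lay on the pseudogenes than on the gene, among them Rps23 (58.8%), Rpl29 (61.9%) and Rps6 (55.0%). Rpl24 also overlaps another annotated gene on its strand. Over the whole family the pseudogenes held 30.5% ± 0.05 of the summed counts in tdTom+ and 30.7% ± 0.12 in tdTom- cells (SD, n = 8), and adding them to their parents gave 5 genes higher and none lower, against 29.3% of all genes higher.

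The paralogs that did not pass the filter belong to other tissues. Rpl10l and Rpl39l, which are expressed in testis, were at 0 counts in each of the 16 libraries, which allows up to 0.118 to 0.175 CPM by counting error alone. Rpl3l, of heart and skeletal muscle, had at most 2 counts in a library. The corresponding core genes were abundant, with Rpl3 at 256 to 430 CPM, Rpl10 at 218 to 287 and Rpl39 at 68.4 to 109 CPM in tdTom+ cells. Rpl10, on chromosome X, had a fold change of 0.28 ± 0.12 (adjusted p = 0.0507) and 0.30 ± 0.07 with the block (adjusted p = 0.00228).

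Ratios between a paralog and its core gene do not depend on the scaling of the library, and 4 could be compared within mice by an exact sign-flip permutation test (two-sided, n = 8 pairs, smallest possible p = 0.00781). These ratios were added after the values of the genes were seen. The log2 ratio of Rps27l to Rps27 was -1.54 ± 0.14 (SD) in tdTom+ and -1.12 ± 0.19 in tdTom- cells, lower in tdTom+ cells in 8 of 8 mice by a mean of 0.413 (exact permutation p = 0.00781, Benjamini-Hochberg over the 4 ratios 0.0208). Rpl7l1 to Rpl7 stood at -3.03 ± 0.09 and -2.82 ± 0.16 and was lower in tdTom+ cells in all mice but 1 (difference -0.21, exact permutation p = 0.0156, adjusted 0.0208). The other ratios that differed were higher in tdTom+ cells. Rpl36al to Rpl36a was -0.16 ± 0.18 in tdTom+ and -0.41 ± 0.21 in tdTom- cells, higher in 7 of 8 mice (difference 0.25, exact permutation p = 0.0234, adjusted 0.0234), and Rpl22l1 to Rpl22 was -1.24 ± 0.09 and -1.41 ± 0.16, higher in 7 of 8 mice (difference 0.17, exact permutation p = 0.0156, adjusted 0.0208). Rps27rt was left out because its reads cannot be told from those of Rps27, which also bears on the counts of Rps27 used here. The aligned parts of Rpl36a and Rpl36al are 87.7% identical and those of Rps27 and Rps27l 76.4%, so some reads of these pairs may be shared.

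Factors that make and assemble ribosomes were tested as lists outside the family. Over all genes 22.7% were called higher and 27% lower without the block, and 25.8% higher with it. For RNA polymerase I and its cofactors, 1 of 10 genes was higher and none lower, with a median log2 fold change of 0.19. The gene called was Taf1c, a subunit of the promoter selectivity factor, at 15.2 to 21.2 CPM in tdTom+ and 12.4 to 14.6 CPM in tdTom- cells (fold change 0.41 ± 0.07 SE, adjusted p = 7.49e-05). With the block Polr1a, the catalytic subunit, was called as well (0.52, adjusted p = 0.000328). None of 20 nucleolar processing genes was called by edgeR without the block (median 0.24), and 4 were higher with it, the helicase gene Ddx21 and Utp4, Utp15 and Gnl3. None of the 7 chaperones of single ribosomal proteins was called (median 0.18), and with the block 1 was, Bccip. Most of the 25 fits did not use the block, so a call that needs the pairing could hold in few of them. The same applies to the counts of fits given for the lists below. Of 25 fits, Utp15 was called in 4, Ddx21 in 5, Gnl3 and Polr1a in 6, Utp4 in 9 and Bccip in 13.

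Among subunit assembly and export factors, 2 of 20 tested were higher and 1 was lower (median 0.12), against 22.7% and 27% of all genes. Tsr1, which holds the pre-40S subunit inactive during its last maturation steps, was counted at 43.5 to 55.2 CPM in tdTom+ cells (median 51.3) and 16.9 to 35.3 in tdTom- cells (median 21.6). The groups did not overlap, and the log2 fold change of 1.14 ± 0.12 (SE, adjusted p = 1.37e-07) was more than that of any ribosomal protein gene. Bysl, another 40S assembly factor, was higher by 0.62 ± 0.16 (adjusted p = 0.00295). Sbds, which with Efl1 releases Eif6 from the new 60S subunit, was lower in 8 of 8 mice, at 34.2 to 42.1 CPM against 39.8 to 57.5 CPM (-0.37 ± 0.08, adjusted p = 0.000929). With the block Rrs1 was called higher too (0.49, adjusted p = 0.001), a call made in 6 of 25 fits.

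The other TOP mRNAs, mostly elongation and initiation factors with the same kind of start, had a median log2 fold change of 0.01, against 0.17 for the family. None of 17 was higher without the block and 1 was lower, against 22.7% and 27% of all genes. That gene, Fau, encodes a ubiquitin-like protein fused to the 40S ribosomal protein eS30, which the naming rule leaves out. Fau was counted at 162 to 206 CPM in tdTom+ cells (median 181) and 236 to 296 CPM in tdTom- cells (median 252). The fractions did not overlap, and the log2 fold change was -0.52 ± 0.07 (SE, adjusted p = 2.42e-06), called lower in 25 of 25 fits. Rps27a, the ubiquitin fusion inside the family, had 0.27 ± 0.15 (adjusted p = 0.135). With the block, Pabpc1, the poly(A)-binding protein gene, was called higher (0.43, adjusted p = 0.000157), a call made in 9 of 25 fits.

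Of 16 genes that control TOP translation, 1 was higher and 6 were lower, a share of calls no larger than the 49.6% over all genes, of which 22.7% were higher and 27% lower. Eif4ebp1, the translational repressor that mTORC1 switches off, was higher at 17.2 to 28.1 CPM in tdTom+ cells against 5.14 to 11.1 CPM in tdTom- cells (log2 fold change 1.59 ± 0.14 SE, adjusted p = 1.11e-08). Larp1b, a relative of Larp1, was lower by 1.01 on the log2 scale (± 0.08, adjusted p = 3.54e-09), with a median of 45.2 CPM against 96.3 CPM. Lower as well were Mtor, the kinase (-0.28), its partners Rptor (-0.51) and Mlst8 (-0.27), the S6 kinase Rps6kb2 (-0.55) and the mTORC1 inhibitor Tsc2 (-0.16). With the block Larp1 (0.22) and Tsc1 (0.24) were called higher and Tsc2 was no longer called, and for Larp1 and Tsc1 the sign turned when libraries were scaled by the ribosomal protein genes. Of 25 fits the call held in 6 for Tsc2, 17 for Mtor and 19 for Mlst8, and Larp1 was called in 11 and Tsc1 in 9.

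In the Myc network, which drives transcription of ribosome genes, 2 of 10 genes were higher and 3 were lower, close to the 22.7% and 27% over all genes. Mxd4, a Max partner that opposes Myc, was higher by 0.88 ± 0.10 (SE, adjusted p = 2.56e-07), at 56.1 to 75.2 CPM in tdTom+ and 26.9 to 45.2 CPM in tdTom- cells, as was Mycl (0.53). Mxi1, another such antagonist, was lower by 1.64 on the log2 scale (± 0.13, adjusted p = 4.57e-09), at 21.5 to 33.7 against 53.5 to 108 CPM, as were Max (-1.27) and Mlx (-0.56). Myc itself was counted at 24.3 to 36.3 CPM in tdTom+ and 15.2 to 36.6 CPM in tdTom- cells, with a fold change of 0.39 ± 0.17 (adjusted p = 0.058, and 0.00752 with the block). With the block Mxd1 and Mga were called higher too, and Mga turned sign when libraries were scaled by the ribosomal protein genes. Of 25 fits, Myc was called in 4, Mga in 7 and Mxd1 in 8.

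**Figure D5:**
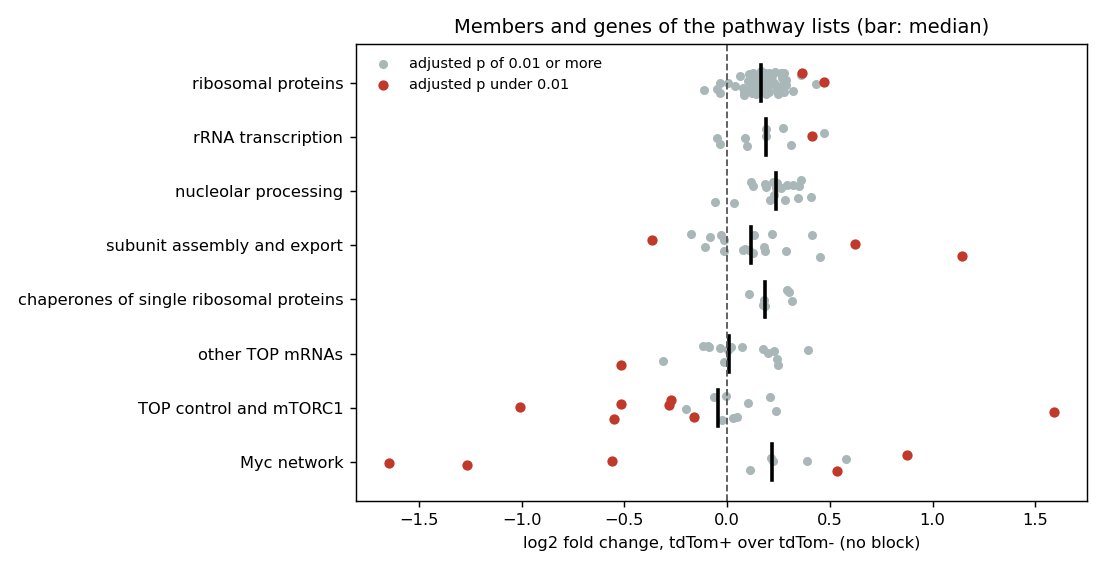
Log2 fold change (tdTom+ over tdTom-, fit without block) of the 83 ribosomal protein genes and of the genes in each pathway list, with red points for an adjusted p under 0.01 and bars for medians. The ribosomal protein genes lie between -0.11 and 0.47, while Tsr1 (1.14), Eif4ebp1 (1.59) and Mxi1 (-1.64) lie well outside that range, and scaling by the family itself moves the family's median to -0.01.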

How the data were processed

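The authors sorted EpCAM+tdTom+ and EpCAM+tdTom- cells from 8 mice, made stranded mRNA libraries, sequenced 50-base reads and aligned them to GRCm38 with TopHat2 (2.1.1 in the submitters' notes). The deposited values are raw counts per Ensembl gene, made by featureCounts with strand set and primary alignments only (Subread 1.5.2 in the notes, 1.5.0-p1 in the file header), so a read that fits a gene and its pseudogene counts at a single place. Symbols came from GENCODE M21 (44671 of 45513 IDs), and 55 of the 86 members had the same bounds there.

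Groups followed the labels. Counts of all 15323 genes passing edgeR's filterByExpr were fitted with edgeR 4.0.16 (R 4.3.3, TMM, quasi-likelihood test, threshold 0.01), and p-values were adjusted over all of them. CPM are TMM-scaled, and log2 CPM carry a prior count of 2. The libraries of a mouse share an animal number in the labels. Deviations of same-numbered libraries correlated at 0.426 on average (0.245 to 0.634), those of others at -0.0569, and mouse was a block in an alternative fit. Other alternatives were DESeq2 1.42.0, limma-voom (limma 3.58.1), other scalings and filters, removal of a length trend, thinning to 17116405 counts, adding of pseudogenes (1309 matched by blastn at 80% identity over 50% of their length) and leaving out each mouse. Adding sequence-matched pseudogenes, scaling by the family with the block, and the ratios of paralogs were chosen after seeing the data.

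The edgeR step was tested on simulated counts. A log2 change of 0.5 was called in 16 of 50 genes without the block and in 8 of 50 with it. A change of 1 was called in 39 and 36 of 50. Of 14995 genes without a change, 3 and 0 were called. The simulated mice had no differences shared by their fractions, so the simulation does not show what the pairing adds. The ribosomal protein genes and lists were chosen with earlier results of these data known. Genes were named by a rule: the 5 largest and 5 smallest fold changes, the 5 highest and 3 lowest levels per kilobase, paralog pairs, the stalk genes, Rpsa, Rps6 and Rps19bp1, and the strongest called gene in each direction of each list. Rpl9, Rpl30, Rps3, Rps23, Rps27a, Rpl29 and other list genes were named after their values were seen. Without the block, p-values measure the spread between these mice, and with it the spread of the within-mouse differences. Some genes of the rule are not reported here.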

Additional observations from a re-analysis of the deposited data

How the results depend on the processing

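The number of ribosomal protein genes called higher, 2 without the block, was 8 with the replicate block, 12 with the length trend removed, 47 with the length trend removed and the block, 18 in DESeq2 with the block, 4 in DESeq2, limma-voom, with relative log expression size factors or at an adjusted p of 0.05, and 5 with TMM without the 10 most counted genes, at least 10 counts in every sample, thinned libraries, or named or sequence-matched pseudogenes added. It was 1 with total counts only or without a filter, and 0 when scaled by the family, with or without the block, or when an absolute log2 fold change of 1 was asked for. Leaving out each mouse gave 1 to 7. Over all genes, DESeq2 with the block called 4406 of 27852 higher. The edgeR and limma-voom fits at 0.01 called from 2038 (scaled by the family) to 4396 (length trend removed, with the block) higher, each of 15323. The number called lower was 0 throughout except for 1 when scaled by the family with or without the block. Of all genes 7606 were called, 8556 with the block, and 3434 with a log2 fold change of at least 1. The share of called genes that were higher was 45.7%, and 33.8% when scaled by the family. The family's median fold change of 0.17 ranged from 0.10 to 0.27 without each mouse and from -0.01 (scaled by the family) to 0.29 otherwise. TMM without the 10 most counted genes, the stricter filter, thinning, named pseudogenes and leaving out mouse 3 each lifted the median of all genes to 0.11 or 0.12, and relative to that median the family lay 0.11 to 0.25 higher in every fit. The causes of these shifts were not tested.

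Over the 29 named members, no call turned its direction under any alternative, 11 of 696 values lost their call and 59 gained one. Only Rpl36al and Rps27rt were called in the fit without the block, so only these genes could lose a call or turn. Rpl36al was called in 23 of 25 fits and Rps27rt in 16 of 25. No ratio of paralogs changed its side of 0.05 without any mouse or with pseudogenes added. The median standard errors were 0.15 without and 0.10 with the block. Without the block, differences as small as the family's median could not be told from the spread between mice for single genes. With it, they could not be told from the spread of the within-mouse differences. With the length trend removed and the block, smaller differences were called, such as 0.19 for Rpl29. Counts on near-identical copies and pseudogenes limit Rps27, Rps27rt, Rpl24 and Rps6, among others.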
